A study of Mus musculus with 24 samples.

Results

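Of the 19953 genes in the table, 10 are described here: Ina, Vgf, Scn3a, Shank1, Htr1b, Lpar4, Slc23a1, Rab25, Msc and Aox3. They were selected on their day 0 values, being higher in Mll1-KO or double-KO mouse embryonic stem cells than in WT cells, so their day 0 differences are a description and carry no test. PolyA RNA was sequenced from 24 libraries, 3 for each of 4 genotypes on each of 2 days, which makes 8 groups. The double-KO lacks both MLL1 and MLL2 and had received 800 nM 4-OHT (the hydroxylated tamoxifen that switches on the inducible Cre) for 48 h. The Mll1-KO was made by CRISPR deletion and was untreated, the Mll2-KO was a Cre-inducible deletion with the same 4-OHT treatment, and the WT cells were untreated. The labels derive the Mll1-KO cells from the Cre-inducible Mll2 line, name no number of clones, and do not say which line the WT cells came from. Loss of Mll1 therefore cannot be told apart from a difference between lines or clones. Loss of Mll2 and exposure to 4-OHT cannot be told apart either. Day 0 cells grew on gelatin with LIF and 15% serum. Day 4 cells had been differentiated towards several lineages for 4 days with 1 µM retinoic acid in 10% serum without LIF. The labels do not say whether the 3 libraries of a group came from separate cultures, so p-values measure only the spread between libraries.

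MLL1 and MLL2 are related enzymes that methylate histone H3 at promoters and enhancers, inside protein complexes shared by the family, and both bind unmethylated CpG-rich DNA. Their loss is known mostly for lowering genes. The genes described here were picked for the opposite direction. By role they are a filament protein (Ina) and a secreted peptide precursor (Vgf) of neurons, a sodium channel (Scn3a) and a synaptic scaffold (Shank1), G protein-coupled receptors (Htr1b, Lpar4), a vitamin C transporter (Slc23a1) and a recycling GTPase (Rab25) of epithelia, a transcription factor (Msc) and an oxidase (Aox3). Several of these are not neuronal, and most are expressed at low levels in stem cells.

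Values are normalized counts, which are reads divided by a size factor per library, and fold changes are on the log2(normalized count + 1) scale, which understates changes of low genes. Libraries held 17.7 to 22.8 M reads at day 0 and 10.7 to 17.1 M at day 4. The deleted gene followed the labels: Kmt2a, which encodes MLL1, had 29.8 ± 8.36 normalized counts in double-KO and 29.7 ± 11.8 in Mll1-KO cells at day 0, against 1381 ± 87.0 in Mll2-KO and 1089 ± 37.8 in WT cells (SD, n = 3 each). Kmt2b, which encodes MLL2, averaged 2640 ± 137 in double-KO, 3379 ± 292 in Mll1-KO, 2540 ± 226 in Mll2-KO and 2853 ± 48.1 in WT cells, and a count over the whole gene does not check an inducible deletion whose extent the labels do not give. Summed pluripotency markers were 137000 to 156000 at day 0 and 3070 to 9870 at day 4, over all libraries of each day.

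The 10 genes lie on 9 chromosomes (GRCm38, GENCODE M21), with Msc and Aox3 both on chromosome 1 but far apart. Ina is on chromosome 19 from 47014698 to 47025327 on the plus strand, Rab25 on chromosome 3 from 88542029 to 88548300 on the minus strand, and Lpar4 on chromosome X from 106920625 to 106933900 on the plus strand. RefSeq promoter windows (GRCm38.p6) were matched by symbol for 5 of the 10 genes, Ina, Rab25, Lpar4, Htr1b and Aox3. MLL1 and MLL2 bind CpG-rich DNA, and these windows range widely in CpG content, so 3 are printed to make that range visible. They are genomic sequence upstream of the annotated first exon, 5′ to 3′ on the gene's own strand, and capitals mark the motif matches described after them.
Ina, chr19:47014431-47014680, plus strand: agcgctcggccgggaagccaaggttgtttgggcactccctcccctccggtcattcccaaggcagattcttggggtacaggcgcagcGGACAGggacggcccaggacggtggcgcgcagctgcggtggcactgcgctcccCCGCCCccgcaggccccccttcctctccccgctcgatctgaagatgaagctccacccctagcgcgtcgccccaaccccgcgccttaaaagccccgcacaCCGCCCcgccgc
Rab25, chr3:88548301-88548529, minus strand: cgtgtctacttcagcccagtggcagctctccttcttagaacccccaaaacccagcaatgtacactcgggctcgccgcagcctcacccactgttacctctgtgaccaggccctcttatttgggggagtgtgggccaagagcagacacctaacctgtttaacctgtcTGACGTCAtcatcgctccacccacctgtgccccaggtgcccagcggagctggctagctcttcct
Lpar4, chrX:106920375-106920624, plus strand: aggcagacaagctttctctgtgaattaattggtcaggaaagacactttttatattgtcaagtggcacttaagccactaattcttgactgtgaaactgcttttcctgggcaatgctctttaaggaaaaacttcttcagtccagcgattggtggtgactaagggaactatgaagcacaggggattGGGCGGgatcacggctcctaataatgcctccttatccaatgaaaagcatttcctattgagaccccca

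In the 250 bases before the start, Ina had 25 CpG pairs, Aox3 had 9, Rab25 had 8, Htr1b had 6 and Lpar4 had 3. Over 32851 RefSeq windows of the same length the median was 6, with quartiles of 2 and 16, and 90.4% of windows had as few CpG as Ina or fewer. Only Ina, among these 5, lay above the upper quartile. Motifs were searched on both strands, and none contains another. They were TGACGTCA (the cyclic AMP response element), GGGCGG (the GC box) and GCGTGGGCG (bound by EGR factors). CACGTG (a form of the E-box) and AGGTCA (a nuclear receptor half-site) were also searched. So were TCAGCACC and GGACAG (pieces of the element bound by the neuronal gene repressor REST). Other forms of the E-box were not searched. TGACGTCA was found in the Rab25 window, with its first base at -85, and in 1.55% of all windows. GGGCGG was found in the Ina window at -111 and -12, where it reads CCGCCC on the strand shown, in the Lpar4 window at -67, and in 32.74% of all windows. GGACAG was found in the Ina window at -164 and in 18.67% of all windows. The other motifs, present in 0.54% (GCGTGGGCG), 6.02% (CACGTG), 14.02% (AGGTCA) and 1.32% (TCAGCACC) of windows, matched none of the 5. A match describes the letters only.

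At day 0 all 10 genes were higher in every double-KO library than in any WT library, and 9 of 10 were higher in every Mll1-KO library than in any WT library. Aox3 overlapped between Mll1-KO and WT. Over all 13984 genes tested at day 0, 31.0% were higher without overlap in double-KO than in WT and 27.9% were higher without overlap in Mll1-KO than in WT. Since the genes were chosen on these contrasts, nothing is read from these counts. In Mll2-KO cells, Vgf, Slc23a1, Scn3a and Shank1 were higher than in WT without overlap (27.1% of all genes). Ina and Lpar4 were lower without overlap (28.3% of all genes), and Htr1b, Rab25, Msc and Aox3 overlapped WT. The WT libraries entered the choice, so nothing is read from these counts either. The order of the double-KO and the Mll1-KO differed between the genes. The double-KO was higher than the Mll1-KO without overlap for 7 genes (24.0% of all genes), lower without overlap for Ina alone (27.7% of all genes), and overlapping for Rab25 and Lpar4. All 10 were higher without overlap in double-KO than in Mll2-KO cells, against 25.7% of all genes. The double-KO libraries are the same in these counts, so they are not separate evidence. The double-KO and Mll1-KO libraries also entered the choice, and these counts are a description.

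**Figure D1:**
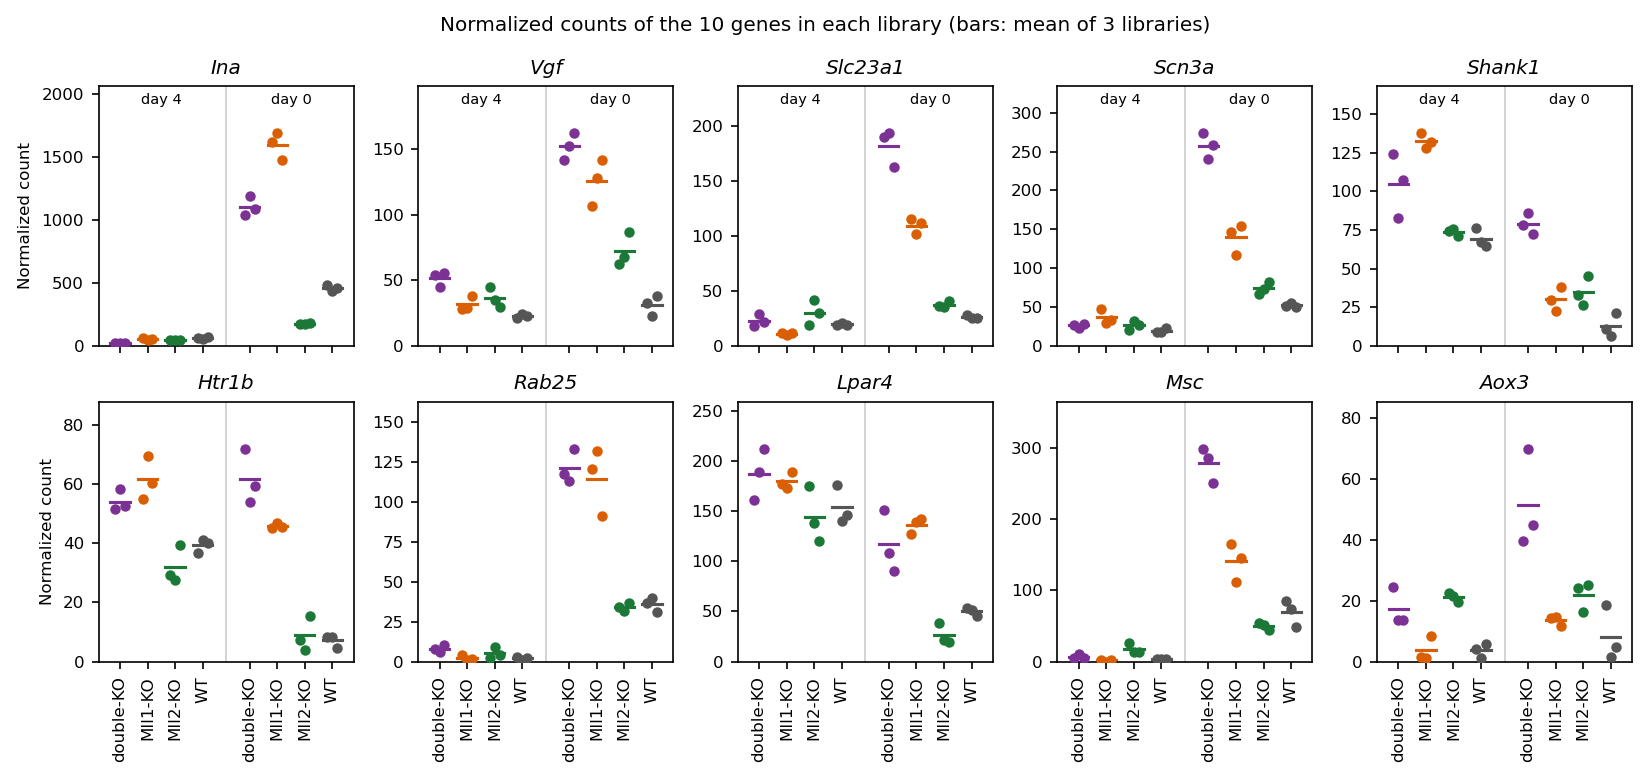
Normalized counts (vertical axes, each starting at 0) of the 10 genes in every library, with day 4 left of day 0 and, within a day, double-KO, Mll1-KO, Mll2-KO and WT. Points are libraries and bars are means of 3, and Ina, at 1474 to 1692 in Mll1-KO cells at day 0, reaches the highest values of the 10 genes.

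Ina encodes alpha-internexin, a neuronal intermediate filament protein that co-assembles with the neurofilament proteins. At day 0 it had 1035.6, 1192.1 and 1089.2 normalized counts in the double-KO libraries and 1616.5, 1691.6 and 1473.9 in the Mll1-KO libraries. It had 172.7, 170.1 and 183.8 in the Mll2-KO libraries and 479.3, 432.9 and 456.6 in the WT libraries. No genotype overlapped another, and Ina was the only one of the 10 genes that was both lower in Mll2-KO than in WT and lower in double-KO than in Mll1-KO without overlap. On the means, double-KO was 2.42 times and Mll1-KO 3.49 times the WT level, whereas the Mll2-KO was at 0.38 of it.

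Vgf encodes a secreted neuropeptide precursor stored in dense-core vesicles and first known for its induction by nerve growth factor. It had 142.0, 152.4 and 162.5 normalized counts in double-KO and 107.0, 127.9 and 141.7 in Mll1-KO libraries at day 0, against 32.9, 22.8 and 38.1 in WT libraries. The Mll2-KO libraries, at 62.7, 67.7 and 86.9, lay between Mll1-KO and WT with no overlap on either side. The ratios to WT were 4.87 in double-KO, 4.02 in Mll1-KO and 2.32 in Mll2-KO cells.

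Scn3a encodes a pore-forming subunit of voltage-gated sodium channels that is prominent in the embryonic brain. Its day 0 values were 274.2, 239.9 and 258.8 in double-KO and 147.1, 117.1 and 154.3 in Mll1-KO libraries, against 67.1, 73.4 and 82.4 in Mll2-KO and 51.3, 54.7 and 50.5 in WT libraries. The 4 genotypes formed separate steps, and Scn3a shared this order with Vgf and Slc23a1. Shank1 encodes a scaffold of the postsynaptic density of excitatory synapses. It had 77.9, 85.9 and 72.2 normalized counts in double-KO libraries, 29.8, 22.5 and 37.9 in Mll1-KO, 33.1, 26.6 and 45.0 in Mll2-KO and 10.7, 6.1 and 21.0 in WT libraries. The double-KO stood apart from both single mutants, which overlapped each other and were both above WT.

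Htr1b encodes an inhibitory serotonin receptor found on nerve terminals. At day 0 it had 72.0, 53.9 and 59.3 normalized counts in double-KO and 45.3, 46.9 and 45.5 in Mll1-KO libraries, against 7.2, 4.0 and 15.3 in Mll2-KO and 8.4, 8.4 and 4.7 in WT libraries. The groups with and without MLL1 did not overlap, and the low groups held few reads, 33 over the 3 Mll2-KO libraries and 28 over the 3 WT libraries. Lpar4 encodes a receptor for lysophosphatidic acid, a signalling lipid of serum. It had 150.9, 108.6 and 90.3 in double-KO and 126.6, 138.6 and 141.7 in Mll1-KO libraries, against 38.5, 21.8 and 19.8 in Mll2-KO and 53.6, 51.6 and 45.8 in WT libraries. Like Ina it was lower in Mll2-KO than in WT, and the double-KO and Mll1-KO libraries overlapped.

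Slc23a1 encodes the sodium-dependent vitamin C transporter of epithelia. It had 189.4, 193.6 and 162.5 normalized counts in double-KO and 115.2, 101.5 and 111.3 in Mll1-KO libraries at day 0, against 35.8, 35.5 and 40.4 in Mll2-KO and 27.6, 25.1 and 25.6 in WT libraries. Its ratio to WT was 6.97 in double-KO and 4.19 in Mll1-KO cells. Rab25 encodes an epithelial GTPase of the Rab11 group that returns membrane cargo to the cell surface. It had 117.4, 112.8 and 133.2 in double-KO and 120.4, 131.8 and 91.1 in Mll1-KO libraries, against 34.0, 31.4 and 36.6 in Mll2-KO and 36.8, 39.5 and 31.1 in WT libraries. Rab25 fell into only 2 levels, with double-KO overlapping Mll1-KO and Mll2-KO overlapping WT.

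Msc encodes musculin, a basic helix-loop-helix repressor known from muscle precursors and lymphocytes. It had 298.8, 285.4 and 251.0 normalized counts in double-KO and 164.6, 112.3 and 145.0 in Mll1-KO libraries at day 0, against 53.7, 51.6 and 44.2 in Mll2-KO and 85.0, 73.7 and 48.1 in WT libraries. Aox3 encodes an aldehyde oxidase, a molybdenum enzyme known from mouse liver. It had 39.5, 69.9 and 44.7 in double-KO and 14.4, 14.6 and 11.8 in Mll1-KO libraries, against 24.2, 16.1 and 25.2 in Mll2-KO and 18.4, 1.5 and 4.7 in WT libraries. The WT libraries of Aox3 spread widely on 32 reads in all, and its 3 libraries of Mll1-KO lay within the WT range. Of the 10 genes it is therefore the one whose day 0 difference between Mll1-KO and WT is inside the spread.

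Per kilobase of annotated exon, which allows levels of different genes to be compared, Ina was the highest of the 10 in double-KO cells at 341 ± 24.6 normalized counts per kb and Msc the next at 109 ± 9.69 (SD, n = 3 each). Aox3 at 7.30 ± 2.31 and Shank1 at 7.48 ± 0.65 were the lowest there and overlapped within their SD. In WT cells the same scale gave Ina 141 ± 7.16, Msc 27.1 ± 7.41, Shank1 1.2 ± 0.72 and Aox3 1.16 ± 1.27.

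Day 4 libraries played no part in the selection, so the genes could be tested there. They carry the same genotypes as the day 0 libraries. A difference between lines or clones that entered the choice could therefore recur in them. Of the 10, 9 passed the filter of at least 10 normalized counts in at least 3 of the 12 day 4 libraries. Rab25 did not: its libraries held 7.8, 6.1 and 10.3 normalized counts in double-KO, 4.2, 1.1 and 1.4 in Mll1-KO, 2.0, 9.2 and 4.4 in Mll2-KO and 3.0, 1.0 and 2.4 in WT cells, from 20, 5, 15 and 6 reads per group. Msc and Aox3 passed only through Mll2-KO and double-KO libraries, so a difference from the other genotypes was built into their passing, and they are described without a test. The other 7 reached 10 in at least 1 library of every genotype. Against WT, 3 of the 7 were called in double-KO (2 higher and 1 lower), 4 in Mll1-KO (3 higher and 1 lower) and 1 in Mll2-KO (1 higher) by limma at an adjusted p below 0.05. Over all 14303 genes tested the shares called were 50.9% in double-KO (27.6% higher, 23.3% lower), 35.8% in Mll1-KO (16.5% higher, 19.2% lower) and 45.7% in Mll2-KO (25.4% higher, 20.3% lower). Double-KO against Mll1-KO called 4 of the 7 (2 higher and 2 lower), against 54.8% of all genes (31.1% higher, 23.7% lower), and double-KO against Mll2-KO called 4 (3 higher and 1 lower), against 40.3% of all genes (19.4% higher, 20.9% lower). With 7 genes these counts say nothing about the genes as a set. The median log2 fold change of the 7 was 0.43 in double-KO, 0.45 in Mll1-KO and 0.09 in Mll2-KO cells against WT, beside 0.03, 0.00 and 0.04 over all genes. Against Mll1-KO and against Mll2-KO the median in double-KO was -0.18 and 0.38, beside 0.04 and -0.01. When counts were scaled to column totals, the share of calls that were higher became 41.3% instead of 54.2% in double-KO, 60.3% instead of 46.2% in Mll1-KO and 34.4% instead of 55.6% in Mll2-KO against WT, and 36% instead of 56.7% in double-KO against Mll1-KO. That scaling moved the median of all genes in the last comparison by -0.11.

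**Figure D2:**
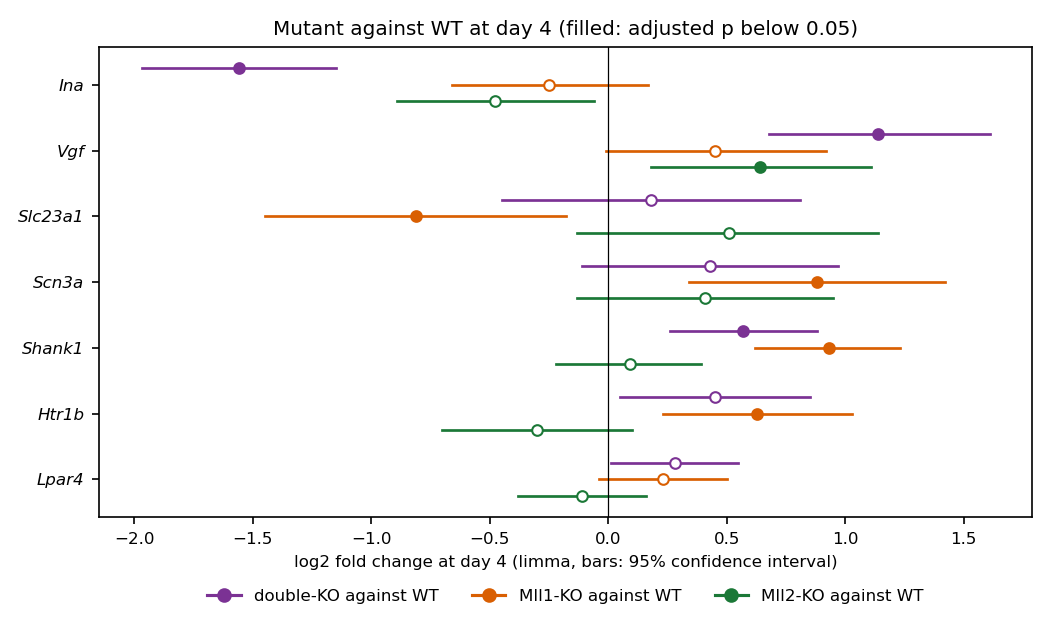
Fitted log2 fold changes (horizontal axis) with 95% confidence intervals (bars) of 7 genes at day 4, for double-KO, Mll1-KO and Mll2-KO against WT, with filled points where the adjusted p was below 0.05. Ina at -1.56 in double-KO is the lowest point and Vgf at 1.14 in double-KO the highest.

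At day 4, Ina was lower in double-KO cells than in every other genotype. It had 23.5, 19.9 and 18.2 normalized counts in double-KO libraries, 59.1, 45.2 and 53.3 in Mll1-KO, 43.1, 47.9 and 42.6 in Mll2-KO and 65.0, 54.1 and 68.3 in WT libraries. The log2 fold change of double-KO was -1.56 ± 0.20 (SE) against WT, adjusted p = 4.4e-07, -1.31 ± 0.20 against Mll1-KO, adjusted p = 5.2e-06, and -1.08 ± 0.20 against Mll2-KO, adjusted p = 1e-04. Mll1-KO did not pass against WT, at -0.25 with a 95% interval of -0.66 to 0.17. Mll2-KO against WT was -0.48, adjusted p = 0.055, and passed in 6 of 17 alternatives. Of these the fit over all 24 libraries gave adjusted p = 0.0029, edgeR 0.021 and the fit without WT replicate 2 0.047.

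Vgf was the only gene of the 7 higher in every mutant than in WT without overlap at day 4. It had 53.7, 44.5 and 55.9 normalized counts in double-KO libraries, 28.1, 28.7 and 37.9 in Mll1-KO and 45.1, 34.6 and 29.5 in Mll2-KO, against 21.3, 24.1 and 22.4 in WT libraries. It rose in double-KO by 1.14 ± 0.23 against WT (adjusted p = 0.00016) and by 0.69 ± 0.23 against Mll1-KO, adjusted p = 0.012. In Mll2-KO the rise against WT was 0.64 ± 0.23, adjusted p = 0.023, a call lost in 4 of 16 alternatives. It was lost without Mll2-KO replicate 1 (0.48, adjusted p = 0.13) or WT replicate 1 (0.61, adjusted p = 0.063). DESeq2 (0.67, adjusted p = 0.067) and scaling to column totals (0.56, adjusted p = 0.051) lost it too. Mll1-KO against WT did not pass, at 0.45 with an interval of -0.01 to 0.92. Double-KO against Mll2-KO did not pass either, at 0.50 with adjusted p = 0.083, and passed without Mll2-KO replicate 1 at 0.66 with adjusted p = 0.046.

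The sodium channel gene Scn3a was higher in Mll1-KO than in WT cells at day 4. It had 26.9, 23.0 and 28.5 normalized counts in double-KO, 47.8, 28.7 and 33.7 in Mll1-KO, 20.6, 31.6 and 26.2 in Mll2-KO and 17.3, 18.0 and 22.4 in WT libraries. The rise in Mll1-KO was 0.88 ± 0.26, adjusted p = 0.011, and was not called without Mll1-KO replicate 1, at 0.67 with adjusted p = 0.078. In double-KO the difference from WT was 0.43 with an interval of -0.11 to 0.97, and it was called under quantile scaling, at 0.78 with adjusted p = 0.015. The scaffold gene Shank1 was higher in both genotypes without MLL1. It had 124.2, 82.8 and 107.2 in double-KO and 137.8, 128.0 and 131.8 in Mll1-KO libraries, against 74.5, 75.4 and 70.9 in Mll2-KO and 76.2, 67.2 and 64.8 in WT libraries. Both of the groups without MLL1 lay above both of the groups with it. Against WT, Shank1 rose by 0.57 ± 0.15 in double-KO, adjusted p = 0.0024, and by 0.93 ± 0.15 in Mll1-KO, adjusted p = 2.2e-05. Against Mll2-KO it rose in double-KO by 0.48 ± 0.15, adjusted p = 0.011, which was lost without double-KO replicate 1, at 0.35 with adjusted p = 0.088, and in the fit over all 24 libraries, with adjusted p = 0.2. Double-KO was lower than Mll1-KO by -0.36 ± 0.15, adjusted p = 0.046, a call lost without double-KO replicate 2 (-0.20, adjusted p = 0.29) or replicate 3 (-0.38, adjusted p = 0.063), and without Mll1-KO replicate 1, 2 or 3 (adjusted p = 0.11, 0.069 and 0.083).

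Of the receptor genes, Htr1b was higher without MLL1 at day 4. It had 51.5, 58.3 and 52.5 normalized counts in double-KO and 54.9, 69.5 and 60.3 in Mll1-KO libraries, against 29.4, 27.5 and 39.3 in Mll2-KO and 36.6, 41.1 and 40.1 in WT libraries. The groups with MLL1 and those without it did not overlap. Mll1-KO rose against WT by 0.63 ± 0.20, adjusted p = 0.013, lost without Mll1-KO replicate 2 at 0.54 with adjusted p = 0.068, and double-KO rose against Mll2-KO by 0.75 ± 0.20, adjusted p = 0.0033. Double-KO against WT did not pass, at 0.45 with adjusted p = 0.056 and an interval of 0.05 to 0.85. It passed under quantile scaling, at 0.81 with adjusted p = 0.0014. Lpar4 had 161.2, 188.6 and 212.1 in double-KO, 177.2, 173.2 and 189.3 in Mll1-KO, 174.4, 137.6 and 120.0 in Mll2-KO and 175.8, 140.3 and 146.1 in WT libraries, and every group overlapped the next in order. Of its comparisons only double-KO against Mll2-KO was called, at 0.38 ± 0.13 with adjusted p = 0.022. That call was lost without double-KO replicate 2 (0.38, adjusted p = 0.056) or 3 (0.29, adjusted p = 0.12) and without Mll2-KO replicate 2 (0.36, adjusted p = 0.067) or 3 (0.26, adjusted p = 0.15). Double-KO against WT, at 0.28 with adjusted p = 0.082, passed without double-KO replicate 1 or WT replicate 1, at 0.38 in both cases with adjusted p = 0.03 and 0.033. Under quantile scaling it passed at 0.39 with adjusted p = 0.015.

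The vitamin C transporter gene Slc23a1 was lower in Mll1-KO than in WT at day 4, with 17.9, 29.1 and 21.7 normalized counts in double-KO and 11.3, 9.9 and 11.2 in Mll1-KO libraries. It had 18.6, 41.8 and 29.5 in Mll2-KO and 19.3, 21.1 and 18.8 in WT libraries. The Mll1-KO libraries lay below all others. The difference from WT was -0.81 ± 0.31, adjusted p = 0.041. This call was lost without any 1 of the 6 Mll1-KO and WT libraries, at -0.84, -0.76 and -0.84 without Mll1-KO replicate 1, 2 and 3 (adjusted p = 0.064, 0.098 and 0.067), and at -0.83, -0.77 and -0.84 without WT replicate 1, 2 and 3 (adjusted p = 0.076, 0.11 and 0.071). Double-KO was higher than Mll1-KO by 0.99 ± 0.31, adjusted p = 0.0083, lost without double-KO replicate 2 at 0.81 with adjusted p = 0.052.

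Msc and Aox3 were read at low levels at day 4. Msc had 5.6, 10.7 and 4.6 normalized counts in double-KO and 2.8, 0.0 and 2.8 in Mll1-KO libraries, with 26.5, 13.2 and 13.1 in Mll2-KO and 4.1, 4.0 and 3.5 in WT libraries. These values rest on 16 reads in double-KO, 4 in Mll1-KO, 52 in Mll2-KO and 11 in WT libraries. Aox3 had 24.6, 13.8 and 13.7 in double-KO and 1.4, 1.1 and 8.4 in Mll1-KO libraries, with 22.5, 21.4 and 19.6 in Mll2-KO and 4.1, 1.0 and 5.9 in WT libraries. Both 4-OHT-treated groups lay above both untreated groups.

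Whether the effect of Mll1 loss differed with and without Mll2 was tested at day 4 as the double-KO minus Mll2-KO difference less the Mll1-KO minus WT difference. By limma 0 of the 7 genes passed, with a median of 0.05, beside 13.6% of all genes tested. At an unadjusted p below 0.05 there were 3 (Ina, Scn3a and Shank1), and edgeR and DESeq2 also called 0. The 13.6% is a share at the adjusted threshold. No share of all genes stands beside the 3, so nothing is read from that count. Ina was closest, at -0.84 with an interval of -1.42 to -0.25 and adjusted p = 0.0501. It passed in 5 of 22 alternatives, among them the fit over all 24 libraries (adjusted p = 0.0034) and the fits without double-KO replicate 1 (-0.93, adjusted p = 0.035) or Mll1-KO replicate 2 (-0.94, adjusted p = 0.049).

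Between the days, 5 to 7 of the genes were lower at day 4 than at day 0, depending on the genotype. Without overlap of the libraries, 7 of 10 were lower in double-KO and 1 higher, beside 39.9% and 42.9% of the 15114 genes tested over both days. In Mll1-KO cells 7 were lower and 3 higher, beside 40.9% and 44.4%. In Mll2-KO cells 5 were lower and 3 higher, beside 39.7% and 42.1%. In WT cells 5 were lower and 3 higher, beside 41.1% and 44.3%. The day 0 libraries of double-KO, Mll1-KO and WT all entered the choice of the genes, so nothing is read from their counts, and the values are given as a description. In WT cells, Ina was 62.5 ± 7.43 at day 4 and 456 ± 23.2 at day 0, Msc was 3.87 ± 0.29 and 68.9 ± 18.9, and Rab25 was 2.14 ± 1.04 and 35.8 ± 4.30. WT cells moved the other way for Lpar4, with 154 ± 19.0 at day 4 and 50.4 ± 4.05 at day 0, Shank1, with 69.4 ± 6.03 and 12.6 ± 7.62, and Htr1b, with 39.3 ± 2.37 and 7.15 ± 2.15 (SD, n = 3 each). The same 3 genes were higher at day 4 in Mll1-KO and in Mll2-KO cells. In double-KO cells only Lpar4 was higher without overlap, at 187 ± 25.5 at day 4 and 117 ± 31.1 at day 0, while Shank1 and Htr1b overlapped between the days.

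**Figure D3:**
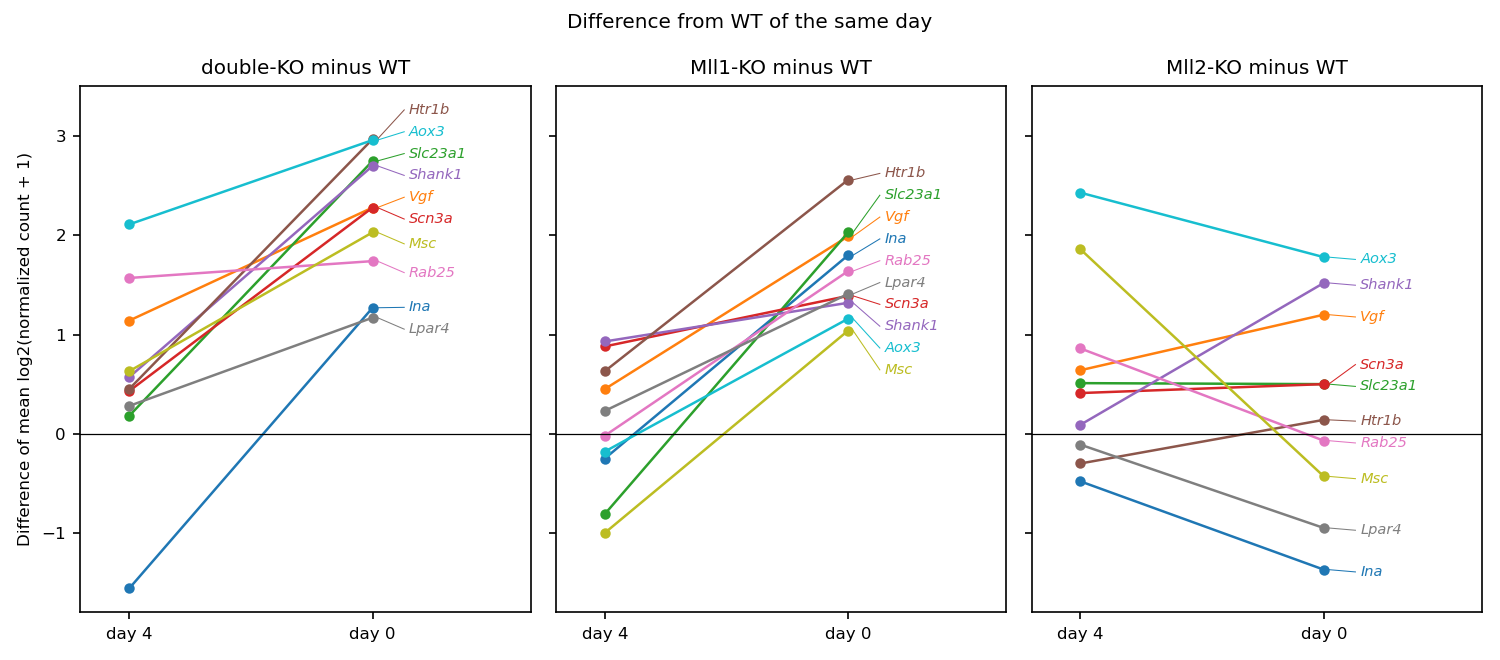
Difference of the mean log2(normalized count + 1) from WT of the same day (vertical axis), at day 4 and day 0, for double-KO, Mll1-KO and Mll2-KO, with a line for each of the 10 genes. In double-KO, Ina is at -1.56 at day 4 and 1.27 at day 0, and Rab25 is plotted at day 4 although it held few reads there.

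The 10 genes did not follow a common pattern over the 24 libraries. Pearson's r of log2 values was 0.93 for Rab25 and Msc and 0.91 for Scn3a and Rab25, whereas Ina and Shank1 gave -0.56. Shank1, Htr1b and Lpar4 went together, with r of 0.74 for Shank1 and Htr1b and 0.85 for Htr1b and Lpar4. Within the 12 day 4 libraries, Ina and Vgf gave -0.86, against 0.68 over all 24. These are descriptions, since the libraries share days and genotypes. By the same measure over 14303 genes, the genes most like Ina were Srsf7 (0.989), Tuba4a (0.984) and Pnp (0.978). The nearest gene to Vgf was Supt6 (0.937), to Slc23a1 Slc38a2 (0.971), to Scn3a Zfp553 (0.972), to Shank1 Hipk1 (0.943), to Htr1b Qser1 (0.930), to Rab25 Dusp27 (0.977), to Lpar4 Ajuba (0.958), to Msc Aoah (0.971) and to Aox3 Nagpa (0.861). Dusp27 averaged 962 normalized counts in double-KO and 948 in Mll1-KO cells at day 0, against 310.4 in Mll2-KO and 392 in WT cells, and Aoah averaged 688 and 491, against 261 and 196.

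In the same annotation, Vgf lies on chromosome 5 from 137026392 to 137033351 (plus strand) and Slc23a1 lies on chromosome 18 from 35614604 to 35627244 (minus strand). Scn3a lies on chromosome 2 from 65457118 to 65567627 (minus strand) and Shank1 lies on chromosome 7 from 44310253 to 44360572 (plus strand). Htr1b lies on chromosome 9 from 81628291 to 81633828 (minus strand). Msc lies on chromosome 1 from 14753346 to 14755992 (minus strand) and Aox3 lies on chromosome 1 from 58113130 to 58200698 (plus strand). Several of the genes overlap a gene on the other strand, and the labels and files do not state whether counting used strand, so reads of such a pair cannot be told apart where they overlap. In the table these partners are Nt5c2 for Ina, Paip2 for Slc23a1, 1700008O03Rik for Shank1 and D430036J16Rik for Htr1b. At day 0 Nt5c2 was 767 ± 79.2 in double-KO, 833 ± 18.6 in Mll1-KO, 653 ± 21.6 in Mll2-KO and 678 ± 28.2 in WT cells. These means had the same order as those of Ina, with a narrower spread. Paip2 was 2599 ± 211 in double-KO and 3340.0 ± 201 in Mll1-KO, against 2886 ± 122 in Mll2-KO and 3643 ± 91.4 in WT cells, so it was lower in double-KO, where Slc23a1 was highest. 1700008O03Rik averaged 15.2 ± 6.6 in double-KO, 4.7 ± 5.8 in Mll1-KO, 19.0 ± 6.9 in Mll2-KO and 7.9 ± 5.2 in WT cells, and D430036J16Rik was at most 0.3 in every group.

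Relatives of the 10 genes were tested at both days from lists of their families and partners. Over all genes limma called 53.7% at day 0 in double-KO (26.6% higher, 27.1% lower), 40.0% in Mll1-KO (21.3% higher, 18.7% lower) and 47.2% in Mll2-KO (22.8% higher, 24.3% lower) against WT, with a median log2 fold change of 0.00 in each. Scaling to column totals made 38.9% instead of 53.2% of the calls in Mll1-KO higher. Of 9 other filament genes tested, 3 rose and 3 fell in double-KO and 3 rose and 0 fell in Mll1-KO. Peripherin (Prph), a filament protein of peripheral neurons, averaged 841 ± 69.1 in double-KO and 295 ± 28.7 in Mll1-KO cells, against 198 ± 10.6 in WT cells, and spread over 442.6 to 1092 in the Mll2-KO libraries. It rose by 2.08 in double-KO, adjusted p = 6e-08, beside 1.27 for Ina, and by 0.57 in Mll1-KO, adjusted p = 0.033. Prph also rose in Mll2-KO, by 1.61, adjusted p = 3e-06. The neurofilament heavy chain gene Nefh went both ways at day 0: it fell by 0.79 in double-KO, adjusted p = 1.8e-07, and rose by 0.42 in Mll1-KO, adjusted p = 0.00047. Of the same 9 genes, 1 rose and 5 fell in Mll2-KO.

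Granins and other vesicle cargo are stored with Vgf. Of 10 tested at day 0, 1 rose and 4 fell in double-KO, 1 rose and 2 fell in Mll1-KO, and 1 rose and 4 fell in Mll2-KO. Chga, the precursor chromogranin A, averaged 155 ± 5.48 in double-KO and 242 ± 17.3 in Mll1-KO cells, against 314 ± 6.30 in WT cells. Chga fell by 1.01 in double-KO, adjusted p = 5.1e-08, and by 0.38 in Mll1-KO, adjusted p = 0.0047. It also fell in Mll2-KO, at -0.85, adjusted p = 9.4e-07. Of 7 other sodium channel genes tested, 0 rose and 3 fell in double-KO, 0 rose and 2 fell in Mll1-KO, and 1 rose and 1 fell in Mll2-KO. Of 13 postsynaptic scaffold genes, 5 rose and 4 fell in double-KO, 3 rose and 1 fell in Mll1-KO, and 4 rose and 2 fell in Mll2-KO. Shank3, the paralog of Shank1, rose by 0.51 in double-KO, adjusted p = 8.2e-05, and by 0.34 in Mll1-KO, adjusted p = 0.005. It also rose in Mll2-KO, by 0.38, adjusted p = 0.0019. Per kilobase Shank3 stood well above Shank1 in double-KO cells, at 46.8 ± 6.67 normalized counts per kb against 7.48 ± 0.65 for Shank1.

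Serotonin genes other than Htr1b were mostly silent: 4 of 20 could be tested at day 0, and 0 rose and 3 fell in double-KO, 0 rose and 1 fell in Mll1-KO, and 0 rose and 2 fell in Mll2-KO. Maoa, which breaks serotonin down, fell by 0.81 in double-KO, adjusted p = 7.3e-08, and was at -0.01 in Mll1-KO. In Mll2-KO it was at -0.62, adjusted p = 3.5e-06. Of 12 lysophosphatidic acid genes, 4 rose and 2 fell in double-KO, 4 rose and 2 fell in Mll1-KO, and 2 rose and 2 fell in Mll2-KO. The receptor gene Lpar6 averaged 172 ± 10.4 in double-KO and 173 ± 9.94 in Mll1-KO, against 56.6 ± 4.75 in Mll2-KO and 120.3 ± 8.28 in WT cells, the order that Lpar4 showed. Lpar6 rose by 0.51 in double-KO, adjusted p = 0.0025, and by 0.52 in Mll1-KO, adjusted p = 0.0031, beside 1.17 and 1.41 for Lpar4.

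Among 5 vitamin C and sugar transport genes tested, 2 rose and 2 fell in double-KO, 1 rose and 3 fell in Mll1-KO, and 4 rose and 1 fell in Mll2-KO. Slc23a2, the widely expressed paralog of Slc23a1, averaged 1230.4 ± 57.8 in double-KO and 883 ± 56.1 in Mll1-KO, against 1359 ± 142 in Mll2-KO and 689 ± 38.8 in WT cells. Slc23a2 rose by 0.84 in double-KO, adjusted p = 7.7e-09, and by 0.36 in Mll1-KO, adjusted p = 0.00052, and its mean, unlike that of Slc23a1, was highest in Mll2-KO, where its libraries overlapped those of double-KO. Of 11 Rab11 family and effector genes, 2 rose and 6 fell in double-KO, 2 rose and 6 fell in Mll1-KO, and 2 rose and 1 fell in Mll2-KO. Myo5b, the motor that carries Rab11 vesicles, fell by 2.12 in double-KO, adjusted p = 1.4e-07, and by 1.12 in Mll1-KO, adjusted p = 0.00047. Of 12 genes for helix-loop-helix factors and Id proteins, 5 rose and 4 fell in double-KO, 4 rose and 1 fell in Mll1-KO, and 2 rose and 3 fell in Mll2-KO. Id3, an inhibitor of such factors, rose by 1.07 in double-KO, adjusted p = 1.1e-06, and by 1.21 in Mll1-KO, adjusted p = 4.2e-07. Of 9 molybdenum enzyme and cofactor genes, 4 rose and 0 fell in double-KO, 0 rose and 1 fell in Mll1-KO, and 5 rose and 1 fell in Mll2-KO. Mocs1, which makes the cofactor, rose by 0.79 in double-KO, adjusted p = 4.7e-05.

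**Figure D4:**
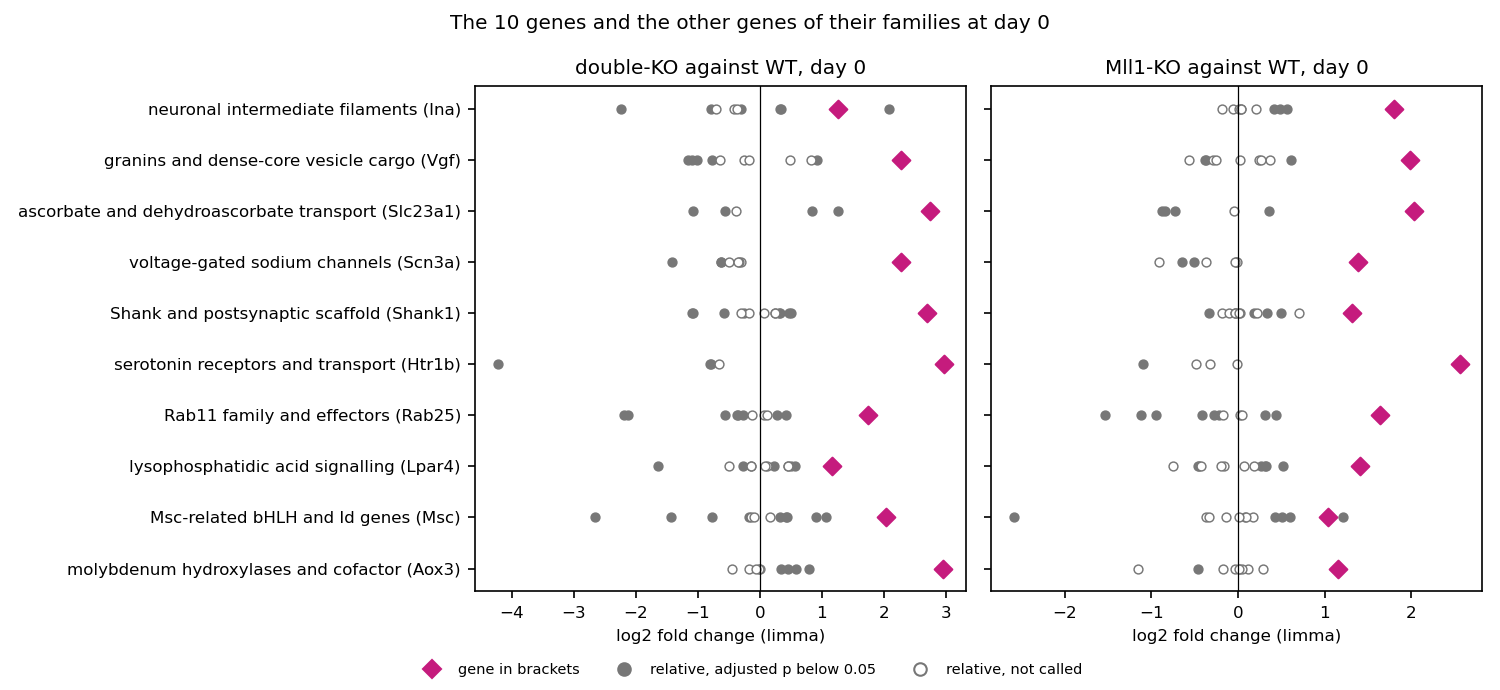
Fitted log2 fold changes at day 0 (horizontal axes) in double-KO and in Mll1-KO against WT, with a row for each family, a diamond for the gene in brackets and circles for its relatives, filled where the adjusted p was below 0.05. The diamonds were chosen to be high, and Prph at 2.08 in double-KO and Id3 at 1.21 in Mll1-KO lie to the right of Ina and Msc in their rows.

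At day 4, the neurofilament gene Nefh fell in double-KO by 1.38, adjusted p = 3.5e-06, as Ina did, while Prph rose by 1.57, adjusted p = 2.8e-13. In Mll2-KO against WT, Nefh was at -0.81, adjusted p = 0.0022, and Prph at 1.08, adjusted p = 4.3e-10. Of 8 filament genes tested, 3 rose and 5 fell in double-KO and 2 rose and 1 fell in Mll1-KO. The Mll2-KO had 3 rises and 3 falls. Around Vgf, 1 of 11 granin and vesicle genes rose and 6 fell in double-KO, where Chga fell by 2.59, adjusted p = 3e-07. Of the same 11, 4 rose and 1 fell in Mll1-KO, and 0 rose and 7 fell in Mll2-KO. Of 11 sodium channel genes, 3 rose and 5 fell in double-KO and 2 rose and 0 fell in Mll1-KO. The Mll2-KO had 1 rise and 6 falls among them. Of 12 postsynaptic genes, 3 rose and 3 fell in double-KO and 2 rose and 6 fell in Mll2-KO. In Mll1-KO 7 rose and 0 fell, with Shank3 up by 0.46, adjusted p = 0.0025, and Shank2 by 0.92, adjusted p = 0.0057. In the serotonin list 0 of 6 rose and 4 fell both in double-KO and in Mll2-KO, and 0 rose and 1 fell in Mll1-KO. Maoa averaged 149 ± 13.8 in double-KO and 202 in Mll2-KO, against 765 in Mll1-KO and 810 ± 14.1 in WT cells. Its fold change in Mll2-KO against WT was -2, adjusted p = 3e-16. Aox4, a neighbour of Aox3 in the aldehyde oxidase family, was 78.4 ± 5.98 in double-KO and 10.3 ± 5.66 in WT cells. It rose in double-KO by 2.95 against WT, adjusted p = 4.1e-08, and by 3.12 against Mll1-KO, adjusted p = 1.4e-08. Against Mll2-KO the rise in double-KO was 1.25, adjusted p = 0.0033.

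Marker genes of other cell types were measured beside the 10 genes, because in bulk RNA fewer cells of a type and less RNA per cell cannot be told apart. Summed neuron markers (23 genes, of which 1 was at 0 in each day 0 group) were 8840 to 9100 in double-KO and 9470 to 10000 in Mll1-KO libraries at day 0, against 8200 to 8410 in Mll2-KO and 9130 to 9540 in WT libraries. Of 18 neuron markers tested, 5 rose and 7 fell in double-KO, and 3 rose and 3 fell in Mll1-KO, against WT. In Mll2-KO 2 rose and 9 fell. At day 0 every double-KO and every Mll2-KO sum lay below every WT sum, and the Mll1-KO sums overlapped WT. Much of each day 0 sum came from Stmn2, which averaged 4259 in double-KO, 4441 in Mll1-KO, 4553 in Mll2-KO and 4741 in WT cells. The day 4 sums were 2640 to 2800 in double-KO and 2970 to 3040 in Mll1-KO libraries. Those of Mll2-KO were 2280 to 2390 and those of WT 2280 to 2430, both below the groups without MLL1. Of 17 tested at day 4, 7 rose and 5 fell in double-KO. In Mll1-KO 7 rose and 2 fell, and in Mll2-KO 5 rose and 4 fell. Over all genes, 27.6%, 16.5% and 25.4% were higher and 23.3%, 19.2% and 20.3% lower. Of 16 known REST targets, 7 rose and 3 fell in double-KO and 5 rose and 2 fell in Mll1-KO at day 0. In Mll2-KO 3 rose and 2 fell. Over all genes, 26.6%, 21.3% and 22.8% were higher and 27.1%, 18.7% and 24.3% lower in double-KO, Mll1-KO and Mll2-KO. Rest itself was 0.10 in double-KO and 0.12 in Mll1-KO, neither called. Summed over 27 targets, day 4 libraries held 1930 to 2080 in double-KO and 1780 to 1980 in Mll1-KO. The sums were 1570 to 1590 in Mll2-KO and 1420 to 1500 in WT, while all genotypes overlapped at day 0.

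Lists of other cell types and of signalling genes were read in the same way. Summed endoderm markers (18 genes, 2 at 0 in each mutant group and 1 in WT) were 8530 to 8920 in double-KO and 7240 to 7800 in Mll1-KO libraries at day 0, against 32900 to 35800 in Mll2-KO and 31800 to 33000 in WT libraries. Of 15 tested, 0 rose and 14 fell in double-KO, and 1 rose and 14 fell in Mll1-KO, against WT. At day 4 the sums were 166000 to 169000 in double-KO and 109000 to 114000 in Mll1-KO, against 284000 to 291000 in Mll2-KO and 203000 to 211000 in WT libraries. Immediate early and ERK feedback genes, which report growth factor signalling, summed to 26000 to 27000 in double-KO and 29500 to 31200 in Mll1-KO libraries at day 0, against 19700 to 20600 in Mll2-KO and 20600 to 22700 in WT libraries. Of 21 tested, 13 rose and 3 fell in double-KO and 13 rose and 2 fell in Mll1-KO. Egr1 was up in both, by 0.39 (adjusted p = 0.018) and 1.53 (adjusted p = 1.7e-08). Ier3 went the other way, at -2.45 (adjusted p = 1.2e-09) and -2.1 (adjusted p = 2.3e-08). Among the 21, 4 rose and 8 fell in Mll2-KO, where Egr1 was at -1.83 (adjusted p = 1.5e-09) and Ier3 at -3.34 (adjusted p = 2.6e-11). Over all genes 26.6% were higher and 27.1% lower in double-KO, and 21.3% were higher and 18.7% lower in Mll1-KO. For Mll2-KO these shares were 22.8% and 24.3%.

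Summed mesoderm markers (12 genes, 2 at 0 in double-KO) were 199 to 228 in double-KO and 339 to 376 in Mll1-KO libraries at day 0, against 654 to 746 in Mll2-KO and 876 to 971 in WT libraries. Of 7 tested, 0 rose and 4 fell in double-KO, and 1 rose and 3 fell in Mll1-KO, against WT. Pdgfra, a growth factor receptor of mesoderm and primitive endoderm, fell by 2.74 in double-KO, adjusted p = 9e-12, and by 2.7 in Mll1-KO, adjusted p = 2.2e-11. Summed surface ectoderm and epithelial markers (17 genes, 1 at 0 in Mll1-KO and in WT) were 14600 to 15300 in double-KO and 15200 to 16200 in Mll1-KO libraries, against 13500 to 14400 in Mll2-KO and 13600 to 13900 in WT libraries. Of 14 tested, 5 rose and 1 fell in double-KO, and 6 rose and 4 fell in Mll1-KO. Grhl2, an epithelial transcription factor, rose 1.8-fold in double-KO, adjusted p = 8.2e-08, and 2.19-fold in Mll1-KO, adjusted p = 2.7e-09. The epithelial splicing regulator gene Esrp1 rose by 1.05 in double-KO, adjusted p = 1.1e-06, and by 0.89 in Mll1-KO, adjusted p = 1.6e-05. The keratin gene Krt19 fell by 1.69 in double-KO, adjusted p = 2.7e-05, and by 2.15 in Mll1-KO, adjusted p = 2.6e-06. It also fell in Mll2-KO, at -2.37, adjusted p = 6.4e-07. The part of these lists in the values of the 10 genes, Rab25 and Slc23a1 among them, was not tested.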

How the data were processed

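Libraries were made with a stranded TruSeq mRNA kit, per the labels' protocols. The authors deposited 1 table of normalized counts for 19953 genes, a signal equal to a read count over a size factor per library. Per the submitters' processing notes, STAR 2.7.10a and RSEM 1.3.1 were used with mm10, along with Trim Galore 3.4, FastQC, DESeq2 1.34.0 and SAMtools 1.13. No annotation is named. Whole reads came back for 100% of values (tolerance 1e-06) and went into edgeR 4.0.16 and DESeq2 1.42.0. The day 0 WT columns carry an unexplained letter. No libraries of a group were alike within sampling noise (chi-square per degree of freedom 1.82 to 10.94).

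Tests used limma 3.58.1 (trend; R 4.3.3) on log2(normalized count + 1), fitted over the 12 libraries of a day. A gene needed 10 or more in 3 libraries or more, which left 13984 at day 0 and 14303 at day 4. Msc and Aox3 passed at day 4 only through Mll2-KO and double-KO libraries and are given no test. Calls needed a Benjamini-Hochberg adjusted p below 0.05. Scripts were tested on simulated data. The genes and lists were chosen with earlier results of these data known. Relatives named were up to 2 called rises and 2 called falls per list with a mean of at least 50, or near paralogs; genes most alike were ranked by Pearson's r.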

Additional observations from a re-analysis of the deposited data

Results flagged for a closer look

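The following differences between genotypes pointed one way in every library at day 4 and the other way at day 0. The difference between days was not tested, and the day 0 values are those on which the genes were chosen. Ina in double-KO was -1.56 against WT at day 4 and 1.27 at day 0, and -1.08 against Mll2-KO at day 4 and 2.65 at day 0. Slc23a1 in Mll1-KO against WT was -0.81 at day 4 and 2.03 at day 0. Scn3a in double-KO against Mll1-KO was -0.45 at day 4 and 0.89 at day 0. Shank1 in the same comparison was -0.36 at day 4 and 1.39 at day 0. Msc was -1.0 in Mll1-KO against WT at day 4 and 1.04 at day 0, and -1.23 in double-KO against Mll2-KO at day 4 and 2.46 at day 0. Msc passed the day 4 filter only through Mll2-KO and double-KO libraries, and had, at day 4, 16 reads in double-KO, 4 in Mll1-KO, 52 in Mll2-KO and 11 in WT libraries.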

How the results depend on the processing

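Of 731 values of the 7 genes under alternatives, 672 kept their call, 38 lost it and 21 gained it. Of called values 0 changed sign, and 13 values that were not called did. Of 192 counts of genes called, 190 stayed within 1.5 times. The count for non-additivity, 1951, was 1000 in a fit over all 24 libraries and 1269 to 2092 with 1 library left out, lowest without Mll2-KO replicate 2. The cause was not tested. Replicate numbers did not pair libraries: deviations of same-numbered libraries correlated with a median r of 0.004 at day 0 and 0.027 at day 4. A replicate block gave 1800 non-additive genes and changed no call of the 7 genes. The Slc23a1 fall in Mll1-KO was not called in 11 of 16 alternatives, among them edgeR (adjusted p = 0.069) and DESeq2 (adjusted p = 0.12), nor was Shank1 in double-KO against Mll1-KO in 10 of 17. In the fit over all 24 libraries, calls were lost for Htr1b in Mll1-KO against WT (adjusted p = 0.12), Shank1 in double-KO against WT (0.099), Mll1-KO (0.31) and Mll2-KO (0.2), and Htr1b and Lpar4 in double-KO against Mll2-KO (0.057 and 0.15). Quantile scaling added calls in double-KO against WT for Scn3a, Htr1b and Lpar4 (adjusted p = 0.015, 0.0014 and 0.015). In Mll2-KO against WT it added calls for Slc23a1, Scn3a and Shank1 (0.027, 0.021 and 0.029). It lost Shank1 in double-KO against Mll1-KO (0.52). Calls kept in every alternative run were Ina in double-KO against each other genotype, Shank1 in Mll1-KO against WT, and Vgf in double-KO against WT and Mll1-KO. Rab25 did not pass the filter on normalized counts at day 4, where it averaged 2.14 in WT against 35.8 at day 0, and was not tested there.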
